A study of Mus musculus with 6 samples.

Results

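The genes described here encode the proteins of the mitochondrial ribosome and were taken by a rule on symbols, with earlier results of these data known. A gene was a member when its symbol was Mrpl or Mrps followed by a number and at most 1 further letter. Of the 39017 genes in the count tables, 76 were members. By the subunit in which each protein sits, 49 belonged to the large subunit and 26 to the small subunit, with Mrps36 left over. The remaining member, Mrps36, carries a mitoribosomal symbol but is now known as a subunit of the 2-oxoglutarate dehydrogenase complex, and Mrps30 and Mrps18a sit in the large subunit despite their symbols. A total of 75 members were counted, each with at least 191 reads in every library. Mrpl53, a mitochondrial-specific large subunit protein, had 0 counts in all 6 libraries; 88.0% of its exon bases lie under another annotated gene on the same strand, so 0 counts do not show that it was silent.

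Mitochondria translate the few mRNAs of their own genome on ribosomes whose RNAs are encoded in that genome and whose proteins are all encoded in the nucleus, transcribed by RNA polymerase II (Pol II), made in the cytosol and imported. Some of these proteins descend from bacterial ribosomal proteins, while most others have no bacterial counterpart, and these others are classed here as mitochondrial-specific. Mrps18a and Mrps18b fall in that class although they are paralogues of Mrps18c, of the bacterial S18 family. Doxycycline binds bacterial ribosomes and also blocks translation on the mitochondrial ribosome, which is why these genes are of interest in a system that uses doxycycline as its inducer.

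PolyA RNA-Seq of mouse embryonic stem cells (mESCs) of the V6.5 line was analysed in 3 groups of 2 libraries. The degron line is a homozygous clone, selected for efficient degradation, in which a mAID-EGFP tag is fused to the C terminus of RPB1 (encoded by Polr2a), the largest Pol II subunit, and in which OsTIR1, the plant receptor that directs tagged proteins to degradation when auxin is present, stands at the Rosa26 locus under doxycycline control. The untreated group received 1 μg/ml doxycycline for 12 h and no auxin, and the auxin group received the same doxycycline and 500 μM auxin for 6 h. The third group was wild-type mESCs without tag or receptor, and whether they received doxycycline is not given in the sources used here. All cells were grown on irradiated fibroblast feeders. Both comparisons below used the same untreated libraries. Doxycycline was thus shared by both sides of the auxin comparison, while in the wild-type comparison the tag, the receptor, the clone, doxycycline and the preparation cannot be told apart.

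Library totals were 14094022 to 15358714 counts. The labelled cell type was checked on 8 pluripotency genes, which took 0.398% and 0.447% of the counts in the untreated, 0.336% and 0.357% in the auxin and 0.646% and 0.643% in the wild-type libraries. After auxin 4 of the 8 were called lower, against 1.64% of all genes. In wild-type cells 5 were higher and 1 lower, against 29.9% and 30.7% of all genes. The extraction field of the wild-type records mentions retinas. A list of 8 retina genes had, summed, 25 and 34 counts in untreated, 54 and 59 in auxin and 32 and 29 in wild-type libraries. Crx and Rcvrn were at 0 throughout. Only 1 retina gene had enough counts to be tested in the wild-type comparison, and it was called higher (log2 fold change 1.29). After auxin 2 could be tested and 0 were called. Feeder fibroblast genes took 0.0144% to 0.0268% of the counts, with the lowest values in the wild-type libraries and the highest in the auxin libraries. The part of both marker lists in the results was not tested. The degron acts on the RPB1 protein, so no count in these tables checks the depletion. Counts are relative to the library, so that a change in RNA per cell common to all genes, or fewer cells, cannot be told apart from no change.

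To see how strongly the members were expressed, counts were divided by the length of the principal mRNA and by the library total (counts per kb of mRNA per 1000000 library counts). The median level in untreated cells was 32.5, with quartiles of 18.6 and 47.4, and the levels ran from 5.26 to 148 among the members with counts.

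The highest members all belonged to the large subunit. Mrpl33, of the bacterial L33 family, stood at 148 ± 6.08 (SD, n = 2) counts per kb per 1000000 in untreated cells, 147 ± 8.15 after auxin and 117 ± 1.84 in wild-type cells. Mrpl52, a mitochondrial-specific protein, stood at 144 ± 8.18, 162 ± 7.25 and 83.8 ± 3.82 in the same order. These genes did not differ beyond their spread in untreated cells, whereas Mrpl33 was above Mrpl52 in wild-type cells. Mrpl2, whose bacterial counterpart L2 supports the peptidyl transferase centre, stood at a level of 118 ± 10.3, 118 ± 4.22 and 97.4 ± 6.24. Mrpl42, a mitochondrial-specific protein, stood at a level of 109 ± 15.8, 106 ± 1.94 and 142 ± 4.77, so that it led the order in wild-type cells. Mrpl23, whose bacterial counterpart borders the exit of the peptide tunnel, stood at a level of 105 ± 4.82, 116 ± 6.03 and 70.3 ± 2.74. The levels of Mrpl2, Mrpl42 and Mrpl23 lay within their spread of each other in untreated cells.

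The lowest members came from both subunits. Mrps25, a mitochondrial-specific small subunit protein, had the lowest level, 5.26 ± 0.112 in untreated cells, 4.58 ± 0.343 after auxin and 6.57 ± 0.197 in wild-type cells; 69.8% of its exon bases lie under a gene on the opposite strand. By the mean over the 6 libraries the rest of the 5 lowest were, with their untreated levels, the large subunit genes Mrpl48 at a level of 6.42 ± 0.420, Mrpl19 at 6.56 ± 0.244 and Mrpl32 at 8.49 ± 0.481, and the small subunit gene Mrps26 at 8.77 ± 0.238. Mrpl48 and Mrpl19 did not differ beyond their spread, nor did Mrpl32 and Mrps26. The mRNAs of these low members were long, between 3013 bases for Mrpl32 and 6073 bases for Mrps25, against 418 bases for Mrpl52 and a median of 1284 bases. The order rested on the choice of length: against levels computed from all annotated exon bases, Spearman's rho over the members was 0.73, and Mrpl23 moved from rank 5 to rank 49. The order of members was nearly the same after auxin as before it (Spearman's rho of levels 0.994 over 75 members) and less so between wild-type and untreated cells (0.917). These are descriptions across genes, which share libraries and lengths and are not independent replicates.

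**Figure D1:**
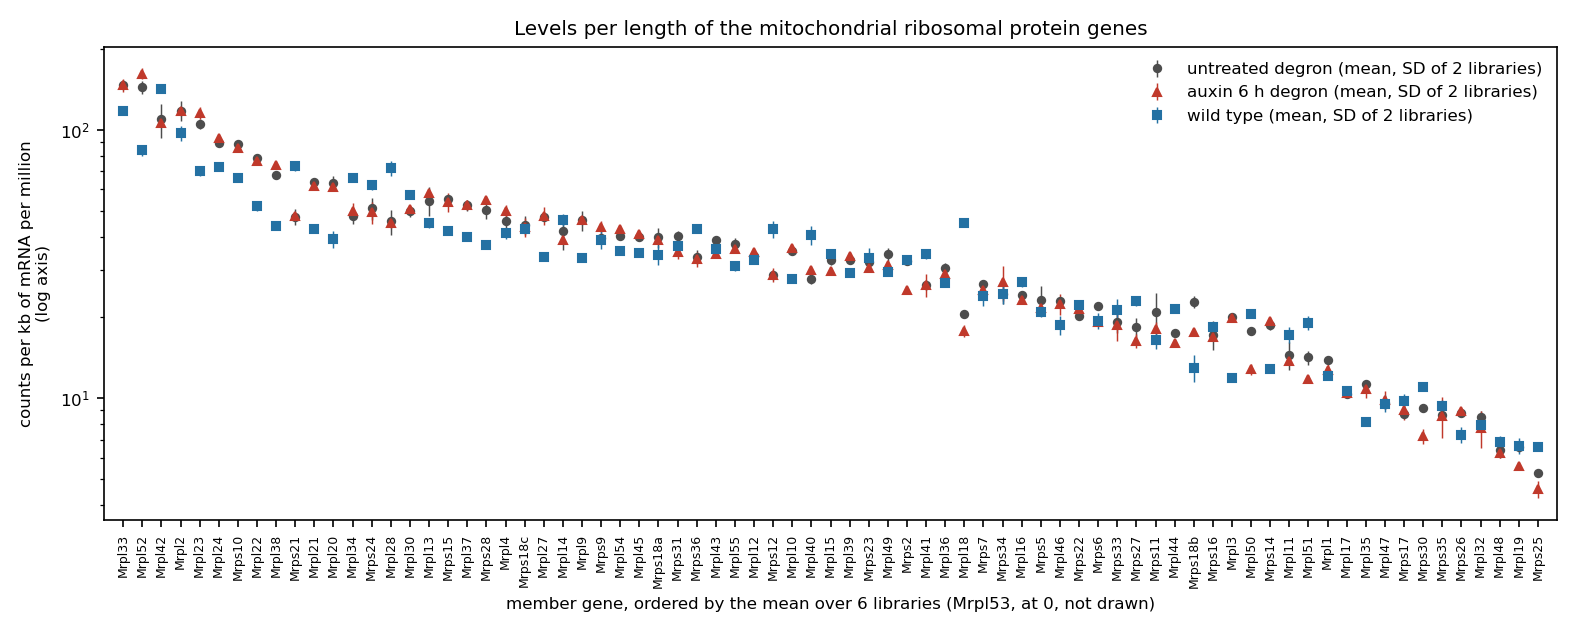
Levels of 75 member genes in counts per kb of principal mRNA per 1000000 library counts on a log axis, with points for the mean and bars for the SD of the 2 libraries of each group. Untreated and auxin points lie close together along the whole order from Mrpl33 to Mrps25, while wild-type points depart from them in both directions, above all for Mrpl18.

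The members were spread over 17 chromosomes, and many started close to the start of a protein-coding gene on the opposite strand. The starts lay within 1000 bp of each other for 32 of 76 members (42.1%), against 2347 of 21303 protein-coding genes (11.0%). For 17 members (22.4%, against 6.83% of protein-coding genes) the pair lay back to back with a gap between the starts, and for 15 the 5′ ends of the pair overlapped. Among these pairs were Mrps18b with Ppp1r10, which encodes a regulatory subunit of protein phosphatase 1, back to back at 45 bp, and Mrpl46 with Mrps11, which are both members and whose 5′ ends overlap. The members were also compact, with a median span of 7894 bp against 17636 bp over all protein-coding genes. These 21303 genes were not limited to genes expressed in these cells, and whether the members differ from expressed genes was not tested.

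Promoters from 250 bases before to 50 bases after the start could be matched in RefSeq (GRCm38.p6, the assembly named mm10) for 67 members. They were searched on both strands for the letters CCGGAAG, the core bound by ETS family factors such as GABPA, GCATGCGC, the core of NRF1 sites, and AAGATGGC, the core of YY1 sites; the motifs share no overlap in the sequences printed below. ETS cores were present in 34.3% of the member promoters and in 11.9% of 17491 protein-coding promoters. NRF1 cores were present in 11.9% and 3.60%, and YY1 cores in 17.9% and 3.22%. At least 1 of these letter strings was found in 52.2% of the member promoters and in 17.3% of all. The protein-coding promoters were likewise not limited to genes expressed in these cells. A match describes the letters of a window and not a bound site. The windows follow the starts of RefSeq, which can differ from the GENCODE gene coordinates given below.

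The first comparison asks what 6 h of auxin, and with it the loss of Pol II protein, did to the mRNAs that encode the mitochondrial ribosome. Almost all of them stayed near their untreated level relative to the other mRNAs. The median log2 fold change of the 75 members tested was -0.05 (quartiles -0.12 and 0.02, range -0.49 to 0.15), against a median near 0 over all 16128 genes tested and -0.02 over the 10999 better covered ones (mean count of 100 or more). The log2 fold change lay within 0.25 of 0 for 69 members (92% against 71.6% of all genes tested), and within 0.5 of 0 for all 75 (against 88.7%). A value below 0 was fitted for 53 of 75 members, against 50.1% of all genes. The SD of the log2 fold changes was 0.13 over the members, 0.44 over all genes tested and 0.20 over the better covered ones, so that coverage moves with this difference. The median SE of a member was 0.09 on the log2 scale. The median of the members turned to 0.02 when untreated replicate 2 was left out, so its sign rested on that library.

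In the quasi-likelihood test of edgeR, with p-values adjusted over all genes by Benjamini-Hochberg, 3 members (4% of those tested) were called at an adjusted p under 0.05, against 4.2% of all genes. All 3 were lower after auxin, where 1.64% of all genes were called lower, and 0 members were called higher, where 2.56% of all genes were. At an unadjusted p under 0.05, 10 members were lower and 0 higher, against 9.38% and 10.7% of all genes. The normalized values of the 2 groups did not overlap for 23 members with lower auxin libraries (30.7% against 24.8% of all genes) and for 7 with higher ones (9.33% against 25%). With the further requirement of a log2 fold change past 1, no member was called, against 1.53% of all genes; DESeq2 called 1 member without that requirement. The share of members called was close to that of all genes, and to the 3.95% of the better covered ones, and is no result about the members.

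The called members were Mrpl50, a mitochondrial-specific protein of the large subunit, Mrps2, of the bacterial S2 family, and Mrps18b. The last is a small subunit protein classed here as mitochondrial-specific, with a paralogue in the bacterial S18 family. Mrpl50 (chr4:49512596-49521093, minus strand) had 538 and 539 counts in the untreated libraries, 429 and 396 in the auxin libraries, and 657 and 633 in the wild-type libraries. Both auxin libraries lay below every other library. Its log2 fold change after auxin was -0.49 (SE 0.09, adjusted p = 0.00917). Mrps2 (chr2:28468066-28471178, plus strand) had 951 and 985 untreated counts, 809 and 800 after auxin, and 1033 and 985 in wild-type cells. Here too the auxin libraries were the lowest, with a log2 fold change of -0.37 (SE 0.07, adjusted p = 0.0135). Mrps18b (chr17:35910379-35916389, minus strand) had 361 and 347 untreated counts, 296 and 283 after auxin, and 224 and 191 in wild-type cells, so that its groups formed 3 separate steps with the untreated libraries highest. Its log2 fold change after auxin was -0.39 (SE 0.10, adjusted p = 0.0475). Of its exon bases, 30.5% lie under a gene on the opposite strand, and how the counting treated strand is not given in the sources used here, so that reads of both genes cannot be told apart there.

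These calls were near the threshold. Without auxin replicate 2, 0 members were called and each of the 3 lost its call, without auxin replicate 1 only 1 was called, and without untreated replicate 1 there were 12. Over the other settings the adjusted p ran from 1.30e-05 to 0.0785 for Mrpl50, from 6.61e-05 to 0.194 for Mrps2 and from 0.00593 to 0.348 for Mrps18b, and all 3 kept their negative sign. Mrps30, a large subunit protein, stood just past the threshold with 429 and 444 untreated counts, 385 and 345 after auxin and a log2 fold change of -0.36 (SE 0.09, adjusted p = 0.0506).

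The promoters of the 3 called members are printed as examples of the windows searched, 5′ to 3′ on the strand of the gene, with RefSeq sequence of GRCm38.p6 in lower case and the motif letters above, on either strand, in capitals. The windows are chr4:49521034-49521333 on the minus strand for Mrpl50, chr2:28467816-28468115 on the plus strand for Mrps2 and chr17:35916391-35916690 on the minus strand for Mrps18b. By the gene coordinates given above, the Mrps18b window lies wholly before the start of the gene. In the first of these and the next no motif was found, whereas the Mrps18b window held 2 NRF1 cores and 1 ETS core on the opposite strand.
Mrpl50: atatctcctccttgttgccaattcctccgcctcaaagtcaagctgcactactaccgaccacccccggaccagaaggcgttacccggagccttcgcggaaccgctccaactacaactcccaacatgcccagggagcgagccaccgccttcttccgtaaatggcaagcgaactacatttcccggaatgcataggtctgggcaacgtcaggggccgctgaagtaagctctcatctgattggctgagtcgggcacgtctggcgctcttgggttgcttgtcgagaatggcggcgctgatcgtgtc
Mrps2: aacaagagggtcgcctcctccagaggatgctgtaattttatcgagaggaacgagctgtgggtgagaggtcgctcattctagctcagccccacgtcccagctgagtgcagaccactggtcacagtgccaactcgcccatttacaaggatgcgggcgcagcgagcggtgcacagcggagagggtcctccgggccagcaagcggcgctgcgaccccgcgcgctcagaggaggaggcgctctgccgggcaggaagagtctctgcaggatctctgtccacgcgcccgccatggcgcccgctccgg
Mrps18b: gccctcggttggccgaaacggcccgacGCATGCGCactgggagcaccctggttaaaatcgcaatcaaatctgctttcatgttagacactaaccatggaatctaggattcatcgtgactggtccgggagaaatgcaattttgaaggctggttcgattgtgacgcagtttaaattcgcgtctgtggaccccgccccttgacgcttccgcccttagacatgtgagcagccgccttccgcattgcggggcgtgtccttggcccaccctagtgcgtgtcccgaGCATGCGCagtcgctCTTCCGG

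**Figure D2:**
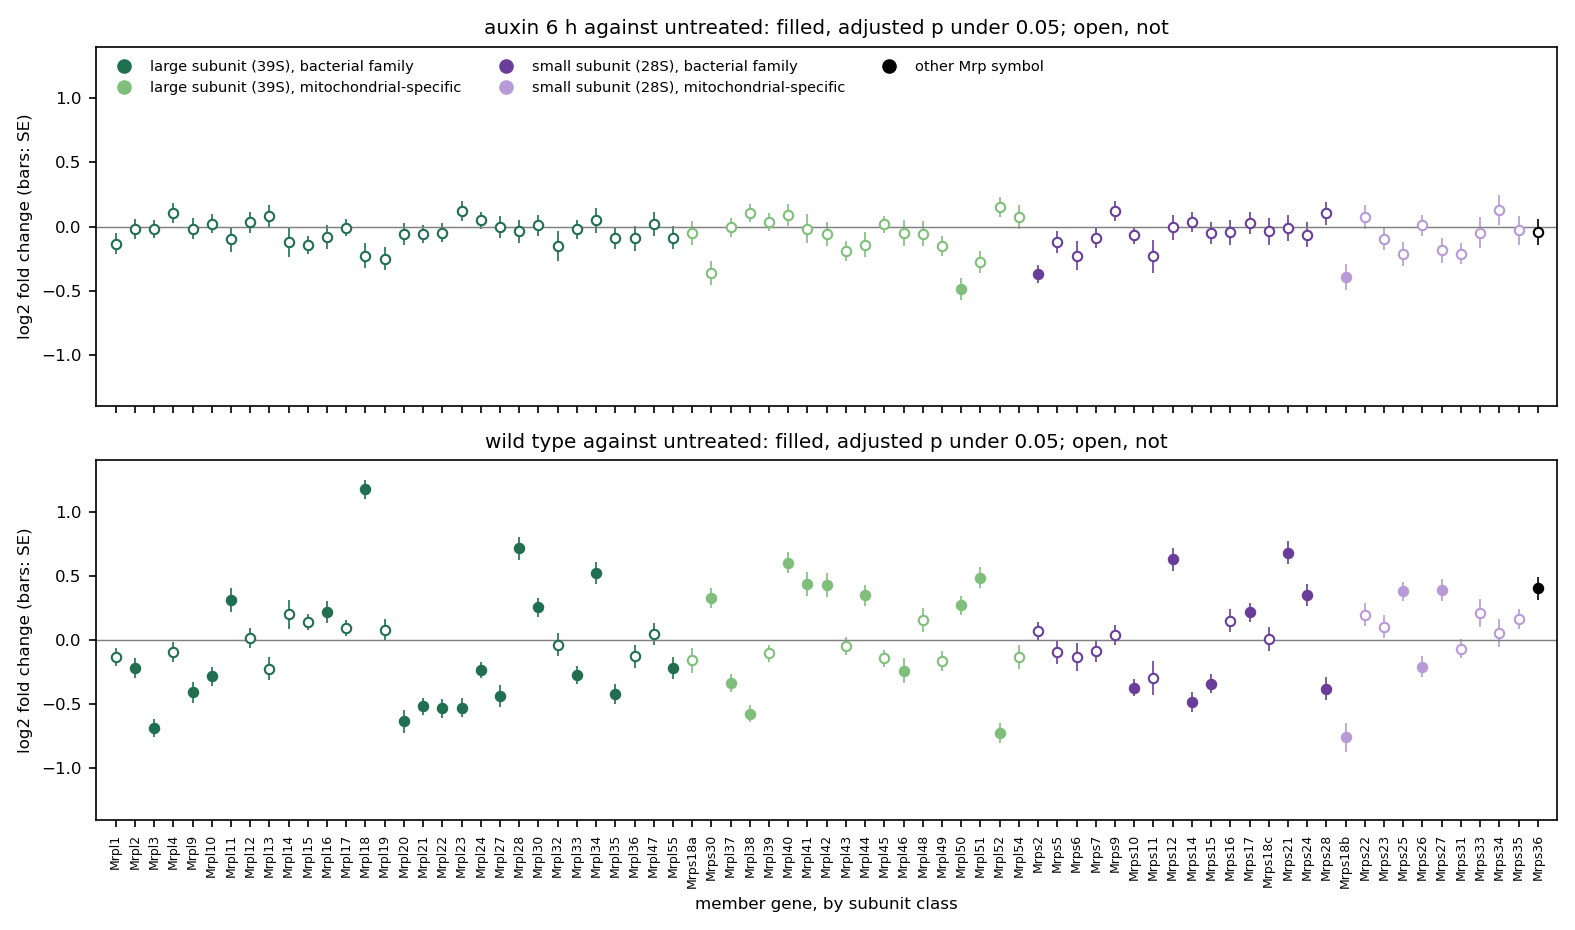
Log2 fold change (bars, SE) of each of the 75 members tested, by subunit and origin, after auxin (upper panel) and in wild-type cells (lower panel), both against the same 2 untreated libraries; filled points passed an adjusted p under 0.05. In the upper panel all points lie within 0.5 of 0, with 3 filled, while in the lower panel 43 are filled, 20 above and 23 below 0, and Mrpl18 alone lies past 1.

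The counts by subunit and origin are to be read against the 1.64% of all genes called lower after auxin. By subunit, after auxin 1 of 48 large subunit members tested was called lower (median log2 fold change -0.04), and 2 of 26 small subunit members were (median -0.05). Of the 46 members of bacterial families 1 was called lower (median -0.04), and of the 28 mitochondrial-specific members tested 2 were (median -0.05). Mrps18b, a paralogue of a bacterial family member, was 1 of these 2, so the split rests on how it is classed. Whether these medians differed was not tested.

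The paralogues of Mrps18b were not called. Mrps18a had 466 and 545 untreated counts and 524 and 522 after auxin (log2 fold change -0.05, SE 0.09, adjusted p = 0.808). Mrps18c, the small subunit member of the bacterial S18 family, had 373 and 435 untreated counts and 450 and 396 after auxin (log2 fold change -0.04, SE 0.10, adjusted p = 0.887). The untreated and auxin counts overlapped for both. Whether Mrps18b differed from its paralogues was not tested.

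Mrps6, of the bacterial S6 family, shares its locus with Slc5a3, a myo-inositol transporter gene that lies within it. Slc5a3 rose from 296 and 241 untreated counts to 884 and 801 after auxin (log2 fold change 1.54, SE 0.11, adjusted p = 8.74e-06). Mrps6 had 259 and 279 untreated counts and 245 and 249 after auxin (log2 fold change -0.23, SE 0.11, adjusted p = 0.284); its values stood on the other side of 0 from those of Slc5a3. For Mrps6, 10.4% of the exon bases lie under Slc5a3 on the same strand, and 19.9% lie under Gm49711, also on the same strand.

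The second comparison asks how the same mRNAs stood in wild-type mESCs, without tag or receptor. Here the members moved apart from each other in both directions, while their median stayed near 0. Of 75 members tested, 43 (57.3%) were called by the same test, against 60.6% of all 15778 genes tested and 67.0% of the 10842 with 100 or more counts on average, so that the share called was not above the background. In wild-type cells 20 members were higher (26.7% against 29.9% of all genes) and 23 lower (30.7% against 30.7%). The libraries did not overlap for 28 members with higher wild-type values (37.3% against 40%) and 33 with lower ones (44% against 41%). The median log2 fold change was -0.05, with a range of -0.76 to 1.18. Only Mrpl18 was called past a log2 fold change of 1 (1.33% of members against 18.1% of all genes), and 61 members lay within 0.5 of 0 (81.3% against 55.7% of all genes). The SD of the log2 fold changes was 0.38 over the members and 0.70 over those 10842 better covered genes. These directions are relative to the other nuclear mRNAs: scaled to the mitochondrially encoded mRNAs instead, all 75 members were lower in wild-type cells, with a median of -2.14 against -2.10 over all genes.

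The member with the smallest p was Mrpl18, of the bacterial L18 family, whose bacterial counterpart binds the small ribosomal RNA of the large subunit. Mrpl18 (chr17:12911349-12916345, minus strand) had 359 and 363 untreated counts, 346 and 317 after auxin, and 806 and 813 in wild-type cells. The wild-type libraries stood far above all 4 degron libraries, whose counts lay close together. The log2 fold change in wild-type cells was 1.18 (SE 0.08, adjusted p = 2.12e-07). Its neighbour Tcp1, whose 5′ end overlaps it on the opposite strand over 10.1% of the exon bases of Mrpl18 and which encodes a subunit of the TRiC chaperonin, had 6522 and 6971 untreated counts and 7024 and 6953 in wild-type cells (log2 fold change 0.06, SE 0.06, adjusted p = 0.387).

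Next among the higher members was Mrpl28, of the bacterial L28 family, with 634 and 765 untreated counts and 1186 and 1090 in wild-type cells (log2 fold change 0.71, SE 0.09, adjusted p = 3.66e-05). Mrps21, a small subunit protein of the bacterial S21 family, had 310 and 356 untreated counts and 544 and 515 in wild-type cells (log2 fold change 0.68, SE 0.09, adjusted p = 6.36e-05). Mrpl40, a mitochondrial-specific large subunit protein, had 518 and 506 untreated counts and 813 and 729 in wild-type cells (log2 fold change 0.60, SE 0.08, adjusted p = 6.89e-05). In each of these genes both wild-type libraries were above both untreated ones, and the auxin libraries, which had 716 and 747, 359 and 350, and 591 and 580 counts in turn, were nearer to the untreated ones. Mrps12, whose bacterial counterpart S12 lies at the decoding centre and is known for streptomycin resistance, had 353 and 374 untreated counts and 585 and 530 in wild-type cells (log2 fold change 0.63, SE 0.09, adjusted p = 8.53e-05). Mrpl34, Mrpl51 and Mrps25 followed with log2 fold changes of 0.52, 0.49 and 0.38.

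Among the lower members, Mrpl3 (chr9:105053239-105079888, plus strand), whose bacterial counterpart L3 reaches towards the peptidyl transferase centre, had 1138 and 1140 untreated counts, 1199 and 1216 after auxin, and 705 and 700 in wild-type cells. Replicates were nearly equal in every group, and the wild-type libraries were the lowest (log2 fold change -0.69, SE 0.07, adjusted p = 5.46e-06). Mrpl52 (chr14:54426909-54429756, plus strand) had 814 and 915 untreated counts, 1008 and 1059 after auxin, and 501 and 538 in wild-type cells (log2 fold change -0.72, SE 0.08, adjusted p = 1.35e-05). Mrpl38, a mitochondrial-specific large subunit protein, had 1337 and 1414 untreated counts and 921 and 910 in wild-type cells (log2 fold change -0.58, SE 0.07, adjusted p = 2.05e-05). For Mrpl52 and Mrpl38 the auxin counts were the highest of the 3 groups, while neither was among the members called after auxin.

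Mrpl21, of the bacterial L21 family, had 1030 and 1050 untreated counts and 720 and 721 in wild-type cells (log2 fold change -0.52, SE 0.07, adjusted p = 4.88e-05). Mrpl20, Mrpl22 and Mrpl23, all of bacterial families and with Mrpl22 lining the peptide tunnel, had log2 fold changes of -0.63, -0.53 and -0.53. Mrps18b, called lower after auxin, was also the lowest member by log2 fold change in wild-type cells (-0.76, SE 0.11, adjusted p = 0.000145). Its neighbour Ppp1r10 went the other way, with 520 and 475 untreated counts and 1678 and 1602 in wild-type cells (log2 fold change 1.73, SE 0.08, adjusted p = 1.42e-08). Neither paralogue was called: Mrps18a had a log2 fold change of -0.16 (SE 0.10, adjusted p = 0.176) and Mrps18c one of 0.01 (SE 0.09, adjusted p = 0.938). Each of these 16 named genes, 8 higher and 8 lower, was called in all 13 alternative settings, the higher ones with the opposite sign when scaled to mitochondrial mRNAs.

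The promoters of the member with the largest difference and of the next members by p, which were lower, are printed in the same way, at chr17:12916042-12916341 on the minus strand for Mrpl18, chr9:105053018-105053317 on the plus strand for Mrpl3 and chr14:54426659-54426958 on the plus strand for Mrpl52. By the gene coordinates given above, the Mrpl18 window lies wholly inside the gene. Each held the ETS core, 1 copy for Mrpl18 and Mrpl3 and 2 copies for Mrpl52, so that the letters were present in members that were higher and in members that were lower.
Mrpl18: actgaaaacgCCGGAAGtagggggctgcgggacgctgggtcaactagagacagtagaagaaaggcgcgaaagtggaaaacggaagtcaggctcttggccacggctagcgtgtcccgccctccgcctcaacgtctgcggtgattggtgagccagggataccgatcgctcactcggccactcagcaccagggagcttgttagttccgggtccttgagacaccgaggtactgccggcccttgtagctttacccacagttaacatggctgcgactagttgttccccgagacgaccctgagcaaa
Mrpl3: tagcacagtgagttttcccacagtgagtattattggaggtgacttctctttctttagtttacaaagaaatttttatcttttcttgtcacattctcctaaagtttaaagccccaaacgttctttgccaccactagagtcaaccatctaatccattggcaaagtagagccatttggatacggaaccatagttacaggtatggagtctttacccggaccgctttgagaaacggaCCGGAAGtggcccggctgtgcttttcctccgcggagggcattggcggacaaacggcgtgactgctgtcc
Mrpl52: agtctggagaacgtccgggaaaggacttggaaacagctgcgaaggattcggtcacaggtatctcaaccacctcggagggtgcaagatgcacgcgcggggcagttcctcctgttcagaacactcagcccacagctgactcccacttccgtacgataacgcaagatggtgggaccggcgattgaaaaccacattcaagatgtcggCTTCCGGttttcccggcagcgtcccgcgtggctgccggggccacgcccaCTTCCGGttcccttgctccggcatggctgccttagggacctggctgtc

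**Figure D3:**
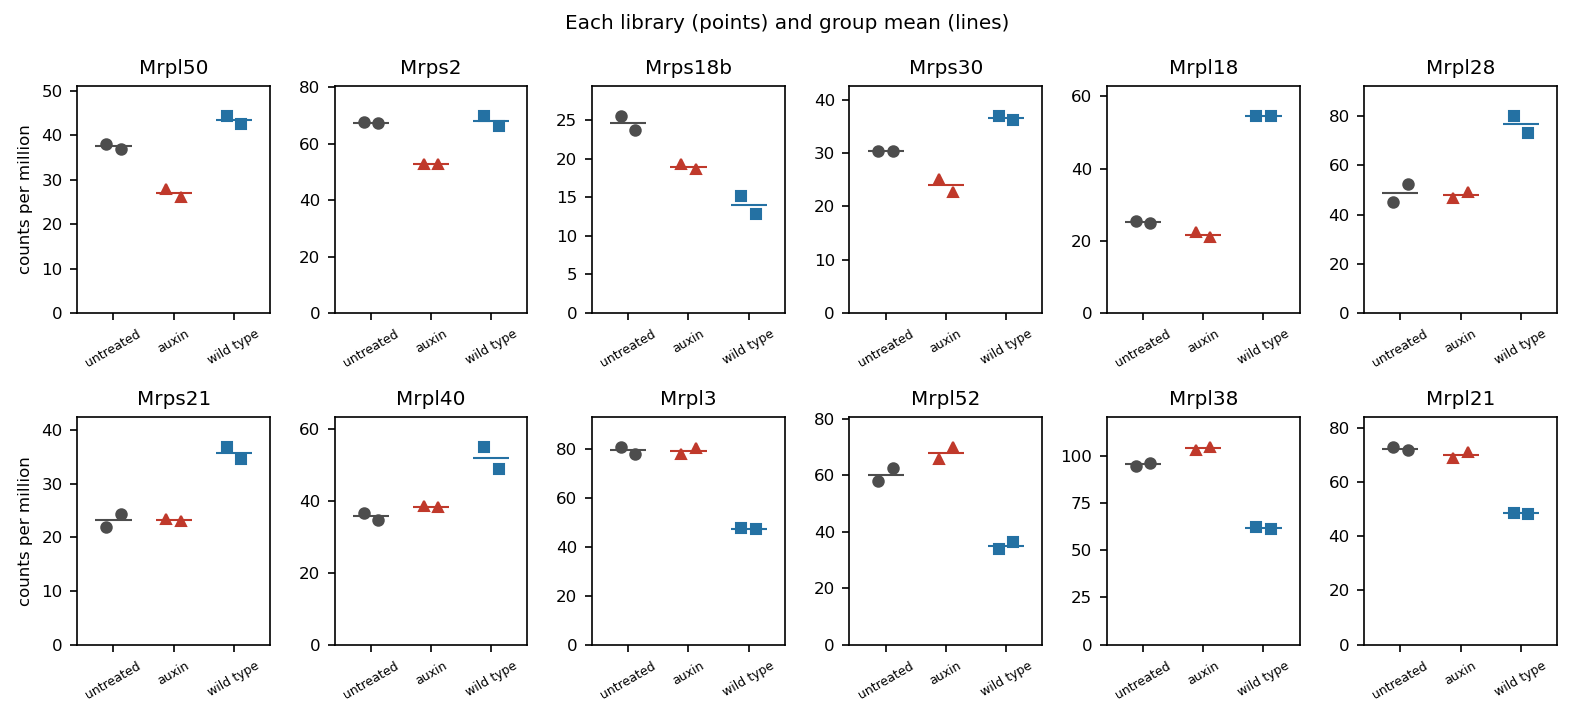
Counts per 1000000 library counts of 12 members in each of the 6 libraries, with points for libraries and lines for the mean of 2, each panel starting at 0. Auxin points lie below both other groups for Mrpl50, Mrps2 and Mrps30, wild-type points are highest for Mrpl18, Mrpl28, Mrps21 and Mrpl40, and they are lowest for Mrps18b, Mrpl3, Mrpl52, Mrpl38 and Mrpl21.

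Both subunits held members of both directions, in numbers to be read against the 29.9% of all genes called higher and the 30.7% called lower. In wild-type cells 13 of 48 large subunit members tested were higher and 17 lower (median log2 fold change -0.12), and of 26 small subunit members 6 were higher and 6 lower (median 0.05). Of the 46 members of bacterial families 10 were higher and 17 lower (median -0.10), while of the 28 mitochondrial-specific members 9 were higher and 6 lower (median 0.08). Mrps18b stood among these 6. Whether the subunits or the origins differed was not tested. Mrps36, which is no mitoribosomal protein by structure, had 347 and 331 untreated counts and 449 and 440 in wild-type cells (log2 fold change 0.40, SE 0.09, adjusted p = 0.00195), within the range of the other members. Mrps30 had 547 and 538 counts in wild-type cells against 429 and 444 untreated (log2 fold change 0.32, SE 0.08, adjusted p = 0.00393).

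**Figure D4:**
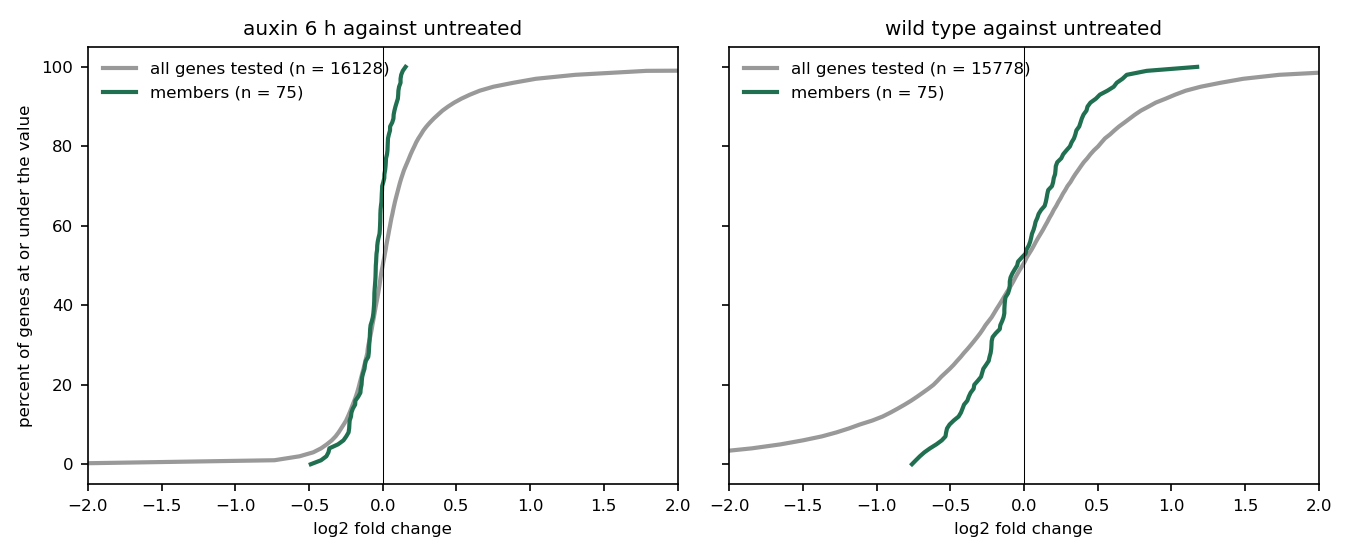
Percent of genes at or under each log2 fold change, for the 75 members tested (green) and for all genes tested (grey), after auxin (left) and in wild-type cells (right), with the axis drawn from -2 to 2. The member curves are steeper around 0 than those of all genes in both panels, with medians of -0.05 in each.

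The members formed 31 distinct pairs with close opposite starts. After auxin 30 could be tested and 1 partner was called, where 4.2% of all genes were, and in no pair were both genes called. The called partner was Gga3, whose 5′ end overlaps that of Mrps7, with a log2 fold change of -0.39 (SE 0.08, adjusted p = 0.0134). In wild-type cells 29 pairs could be tested and 13 partners were called, where 60.6% of all genes were. In 7 pairs both genes were called, 3 of them in the same direction. In 1 of these pairs, Mrpl51 and Ncapd2, which encodes a condensin subunit, both genes were higher, with log2 fold changes of 0.49 and 0.97.

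Summed over the 76 members, the counts changed little. In the untreated libraries they took 0.363% and 0.383% of all counts, in the auxin libraries 0.365% and 0.366%, and in the wild-type libraries 0.353% and 0.345%. The auxin values lay between the untreated ones, and the wild-type values lay below them. As shares of the TMM-scaled totals the wild-type values, 0.367% and 0.358%, lay between the untreated ones, 0.357% and 0.384%. The unscaled means were 0.373% ± 0.0139 (SD, n = 2), 0.366% ± 0.00126 and 0.349% ± 0.00611. By an exact two-sided permutation test over libraries, p was 1 for auxin and 0.333 for wild type, which is the smallest p that 2 against 2 libraries allow. The ratio of large to small subunit counts was 2.34 and 2.33 in untreated, 2.44 and 2.38 in auxin and 2.20 and 2.26 in wild-type libraries. The groups did not overlap, with the auxin libraries highest and the wild-type libraries lowest. Whether the ratio differed between groups was not tested.

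In wild-type cells the RNAs that the mitochondrial ribosome translates differed far more, as far as polyA selection captures them. How that capture varied between these RNAs or between libraries was not tested. The 13 mitochondrially encoded mRNAs took 0.341% and 0.401% of the counts in untreated, 0.399% and 0.441% in auxin and 1.53% and 1.50% in wild-type libraries. The untreated and auxin values overlapped (exact permutation p = 0.667), while the wild-type mean of 1.52% was 4.08 times the untreated mean of 0.371% (exact permutation p = 0.333). All 13 were higher in wild-type cells by the edgeR test, against 29.9% of all genes, with a median log2 fold change of 2.24. The strongest in p were mt-Nd6, mt-Co1 and mt-Nd4, with log2 fold changes of 2.25, 2.69 and 1.74. Several of the shorter ones had few counts and unequal wild-type replicates, such as mt-Co3 with 1897 and 316. After auxin 3 of 12 tested were higher, against 2.56% of all genes. Their log2 fold changes were 1.04 for mt-Co2, 0.94 for mt-Atp6 and 0.77 for mt-Co3, all among the genes with few counts. The ribosomal RNAs of the mitochondrion, as far as polyA selection captures them, went the opposite way to the mRNAs in wild-type cells, at 0.0597% and 0.0608% of the counts against 0.144% and 0.138% in untreated libraries and 0.168% and 0.151% after auxin. Both mt-Rnr1 (log2 fold change -1.37) and mt-Rnr2 (-1.06) were lower in wild-type cells.

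**Figure D5:**
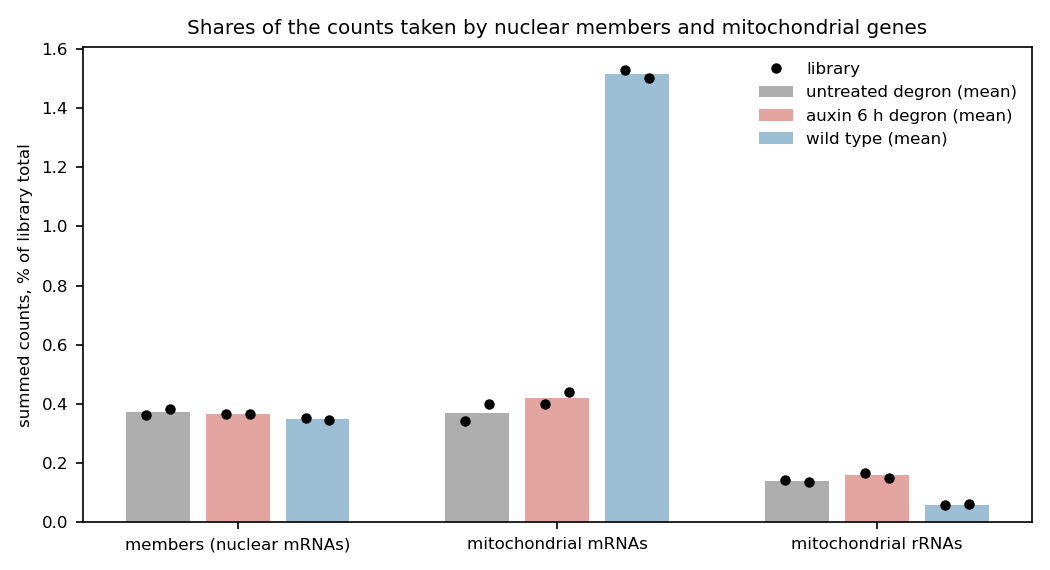
Summed counts as percent of the library total for the 76 nuclear members, the 13 mitochondrial mRNAs and the mitochondrial rRNAs, with bars from 0 for the mean of 2 libraries and points for each library. The member bars are nearly level, while in wild-type cells the mRNA bar is 4.08 times the untreated one and the rRNA bar 0.427 times.

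The members' partners in mitochondrial translation were read from lists chosen together with the members, with earlier results of these data known. Counts in this and the next paragraph are to be read against all genes tested. Of those 4.2% were called after auxin, and in wild-type cells 29.9% were higher and 30.7% lower. Of 8 mitoribosomal proteins or partners whose symbols lie outside the rule, 0 were called after auxin, and in wild-type cells 3 were higher and 2 lower. Dap3, a small subunit protein, had 1425 and 1599 untreated counts and 2447 and 2415 in wild-type cells (log2 fold change 0.70, SE 0.07, adjusted p = 4.82e-06), while Ptcd3, another small subunit protein, and Oxa1l, a membrane insertase that binds the mitoribosome, had log2 fold changes of 0.52 and 0.39. Of 12 mitochondrial translation factors tested, 0 were called after auxin and 7 were higher and 0 lower in wild-type cells, led by the elongation factor Tufm (0.85), by Guf1 (0.79) and by the initiation factor Mtif2 (0.38). Of 17 mitochondrial aminoacyl-tRNA synthetases, after auxin Hars2 was lower (-0.39), and in wild-type cells 8 were higher and 4 lower, with Rars2 at -0.52 and Aars2 at 0.51 among them.

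Of 26 genes of mitoribosome assembly and rRNA modification, Rpusd4 was lower after auxin (log2 fold change -0.49), and in wild-type cells 8 were higher and 6 lower, among them Noa1 at 0.52, C1qbp at 0.42 and Mterfd1, a mitochondrial transcription termination factor family member, at -0.48. Of 15 genes of mitochondrial transcription and RNA maintenance, Tefm, a mitochondrial transcription elongation factor, was lower after auxin (-0.46), and in wild-type cells 8 were higher and 1 lower, with Pnpt1 at 0.56, the mitochondrial DNA polymerase Polg at 0.54 and the mitochondrial helicase Peo1 at 0.51. Of 8 nuclear regulators of respiratory genes tested, Pprc1 was lower after auxin (-0.31), and in wild-type cells 3 were higher, namely Gabpa, whose product binds the ETS core (0.79), Pprc1 (0.74) and Yy1 (0.51), and 1 was lower, namely Nrf1 (-0.31). All list values are relative to the bulk of nuclear mRNAs, and scaling to the mitochondrial mRNAs, which shifts the median of all genes by -2.10 in wild-type cells, was not tabulated for them.

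All listed genes known to respond to mitochondrial stress were called between wild-type and untreated cells, where 60.6% of all genes were. The list was chosen with earlier results of these data known, so its shares are a description and no independent test. Of 15 such genes, 13 were lower in wild-type cells, against 30.7% of all genes, and 2, the chaperonin genes Hspd1 and Hspe1, were higher. Ddit3, a transcription factor of the integrated stress response, had 2834 and 2808 untreated counts, 2681 and 2744 after auxin, and 240 and 296 in wild-type cells (log2 fold change -3.38, SE 0.09, adjusted p = 3.46e-10). Atf5 and Trib3, of the same response, had log2 fold changes of -2.79 and -2.37. For Ddit3 the degron libraries were thus high with and without auxin, and the wild-type libraries were low. After auxin 2 of the 15, Chac1 (-0.45) and Gdf15 (-0.43), were lower, against 1.64% of all genes. The median log2 fold change of the list was -0.74 in wild-type cells and -0.10 after auxin, while that of the members was -0.05 in both. The part of doxycycline in these values cannot be told apart from that of the clone, the tag and the preparation.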

How the data were processed

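PolyA RNA-Seq of 6 libraries was used. The authors aligned paired reads to mm10 with HISAT2 2.1.0 and used Salmon and HTSeq; the annotation release and strand setting are not given in the sources used here. They deposited whole-number counts per gene, not normalized, in 2 tables. Their fold change and p-value columns, and 2 columns of counts labelled as knockout, were not used. Members and lists were chosen with earlier results of these data known. Genes were filtered with filterByExpr (minimum count 10), scaled by TMM and tested with edgeR 4.0.16 (glmQLFit, glmQLFTest, in R 4.3.3) in each pair of groups. The p-values were adjusted over all genes, with calls at 0.05. The same edgeR steps were also run on counts simulated with dispersions that edgeR fitted to these data, which takes its model as true. The named genes were called members (at most 8 a direction, by p), the 5 highest and 5 lowest by level, Mrps18 paralogues, Mrps6, Mrps30, Mrps36, members with 3 counts or fewer, and the 3 called genes of smallest p of each list of mitochondrial function. A result for 1 gene of these lists is not reported here. Lengths and overlaps came from GENCODE vM21; the ID of Mrpl33 was not found there, and its length was taken by symbol. The paper gives its high-throughput experiments as having 2 or more biological replicates. The labels do not say that libraries came from separate cultures, so p-values measure the spread between libraries. Same-numbered libraries did not deviate together (r = 0.053 and -0.029), so no pairing was used. Alternatives were DESeq2 1.42.0, other scalings, no filter, robust dispersion, a replicate block, all groups in 1 fit, a prior count of 5, and each library left out, when the lone library was assumed to vary like the other group.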

Additional observations from a re-analysis of the deposited data

How the results depend on the processing

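After auxin, where 3 members were called, DESeq2 called 1, scaling to mitochondrial mRNAs and testing without a filter called 0 each, the replicate block called 5, all groups in 1 fit called 5, a log2 fold change over 1 left 0, and leaving out libraries gave 0 to 12; in each of these every called member was lower. The median log2 fold change of members after auxin, -0.05, was -0.21 when scaled to mitochondrial mRNAs (all genes -0.17) and -0.10 to 0.020 with a library left out, the last without untreated replicate 2. In wild-type cells, where 43 were called, 75 were called when scaled to mitochondrial mRNAs, 1 with a log2 fold change over 1, 43 with the replicate block and 34 to 45 with a library left out; other alternatives gave 33 to 46. The median there, -0.05, was -2.14 when scaled to mitochondrial mRNAs (all genes -2.10) and -0.09 to -0.01 with a library left out. Because scaling to mitochondrial mRNAs turned the 20 higher members, only members lower in wild-type cells could keep their direction in every alternative. Of the members called, 16 of 43 in wild-type cells and 0 of 3 after auxin kept call and direction in all 13 alternatives that keep the call rule.

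Scaling to the mitochondrial mRNAs turned the 20 members that were higher in wild-type cells, to log2 fold changes of -0.92 for Mrpl18, -1.37 for Mrpl28, -1.41 for Mrps21, -1.47 for Mrps12, -1.50 for Mrpl40, -1.57 for Mrpl34, -1.60 for Mrpl51, -1.65 for Mrpl42, -1.66 for Mrpl41, -1.70 for Mrps36, -1.70 for Mrps27, -1.72 for Mrps25, -1.74 for Mrps24, -1.75 for Mrpl44, -1.77 for Mrps30, -1.78 for Mrpl11, -1.83 for Mrpl50, -1.84 for Mrpl30, -1.88 for Mrpl16 and -1.88 for Mrps17; the scaling rests on RNAs that were 4.08 times as abundant in wild-type libraries.

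The summed share of the members in auxin libraries, 0.366%, was 0.368% without mitochondrially encoded genes in the total, 0.354% of the TMM-scaled total and 0.364% without Mrps6, and that in wild-type libraries, 0.349%, was 0.363% of the TMM-scaled total, where untreated libraries had 0.371%. With a library left out it was 0.363% to 0.383% in untreated, 0.365% to 0.366% in auxin and 0.345% to 0.353% in wild-type libraries. With 2 libraries a group, a median SE of 0.09 on the log2 scale limits what could be called.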
